A study of Homo sapiens with 2 samples.

Results

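The S100 proteins are small EF-hand calcium sensors. The 10 examined here are S100P, S100B, S100A1, S100A2, S100A4, S100A6, S100A10, S100A11, S100A13 and S100A16, taken by gene symbol out of 33538 genes in the feature table. They were chosen with earlier results of these data known. Most S100 proteins work as dimers that expose a binding surface when calcium rises, and S100A10 is the exception that has lost calcium binding. Inside cells they bind annexins, cytoskeletal proteins and p53, and several are released and act on receptors such as RAGE, the product of AGER. S100B is the classic S100 marker of melanocytic tumours. Most S100 genes lie together on chromosome 1 beside the epidermal differentiation complex, which encodes proteins of the skin barrier, while S100P and S100B lie on other chromosomes.

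The genes were measured by single-cell RNA sequencing in A375, an established human melanoma line with a mutant BRAF gene. The parental group was left untreated. The persister group was A375 cells left alive after 15 days with CTLs (cytotoxic T lymphocytes) that recognise the cancer-testis antigen NY-ESO-1, with interleukin 2 at 7.5 ng/mL and new CTLs every 3 days; the labels do not state if parental cells had interleukin 2 too. Each group was 1 library, so no difference between them has a replicate check and no test was possible.

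After filtering, 10630 parental cells held 88110998 unique molecular identifiers (UMIs, each marking 1 captured transcript end) and 6605 persister cells held 79546026. The median parental cell had 7590 UMIs and the median persister cell 11284, so shares of cells were compared after each cell of at least 5000 UMIs had been thinned to 5000, which kept 9094 parental and 5897 persister cells. Another 162 persister barcodes carried 3 or more of 6 T cell markers and were set aside. The melanoma markers had 2168 CPM (UMIs of a gene per 1000000 UMIs of the library) among parental cells and 2524 CPM among persister cells, with TYR, the pigment enzyme tyrosinase, at 0 in both. The T cell markers summed to 2.87 and 6.24 CPM, against 2953 CPM in the T cell barcodes, so T cell RNA at that ratio would supply 0.211% of persister UMIs. The filter sorted barcodes by these same 6 markers, which lowers this ratio by construction. Cytotoxic effector markers, which the filter did not use, summed to 0.363 and 4.21 CPM, against 4702 CPM in the T cell barcodes. Keratinocyte markers summed to 575.5 and 868 CPM with 2 of the 9, KRT1 and KRTDAP, at 0 in both libraries, and their part in the S100 levels was not tested. The libraries shared 38 barcodes.

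In persister cells 6 members passed a 2-fold higher level, counted on log2(CPM + 1): S100P, S100A2, S100A16, S100A11, S100A6 and S100A13. No member was at least 2-fold lower. Among the 9938 genes measured at 5 CPM or more in either library, 9.33% passed the same line upward and 8.93% downward. The median log2 fold of the 10 members was 1.16, against -0.15 over all measured genes. Summed over the members, S100 transcripts took 1.31% of parental UMIs and 2.81% of persister UMIs, a 2.14-fold difference. Without S100A6, the most abundant member, the sum was 0.566% and 1.10%.

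S100P showed the widest difference. It is a carcinoma-associated member that binds ezrin and, when released, RAGE. S100P (chr4:6693069-6697170, plus strand, GRCh38) held 117 UMIs in the whole parental library, a level of 1.33 CPM (95% exact Poisson interval 1.10 to 1.59). In persister cells it held 11409 UMIs, or 143.4 CPM (140.8 to 146.1). The ratio was 108 (90.0 to 131) and the log2 fold 5.96, the 9th largest of the 9938 measured genes. These intervals cover counting error only. The parental UMIs were spread over 113 cells, of which 3 held at least 2, and 2 of the 113 carried a barcode that also occurs in the persister library.

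The stretch of the S100P start region that held an M-box match is shown because this gene had the largest difference. It lies at chr4:6693760-6693788 on the plus strand of GRCh38.p14, and capitals mark letters that match the M-box, the recognition motif of the melanocyte factor MITF, on the opposite strand.
S100P: tcagaactgagCACATGAatggggagggg
Only this stretch is printed, since the whole S100P window lies in the 5′ untranslated region of a longer annotated transcript.

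The start regions of S100A2 and S100A16 are shown because these genes had the next largest ratios. Both are on the minus strand of chromosome 1, and in each the capitals mark the match named below. The S100A2 sequence, chr1:153565866-153566094, ends just before the annotated start of 1 transcript and lies inside the gene, in an intron of longer transcripts. Its capitals are an AP-1 match beginning 52 bases before the RefSeq start. The printed letters stop 22 bases before that RefSeq start. The S100A16 sequence, chr1:153613146-153613387, lies upstream of the gene, and its capitals are a TEAD match on the opposite strand, 247 bases before the RefSeq start.
S100A2: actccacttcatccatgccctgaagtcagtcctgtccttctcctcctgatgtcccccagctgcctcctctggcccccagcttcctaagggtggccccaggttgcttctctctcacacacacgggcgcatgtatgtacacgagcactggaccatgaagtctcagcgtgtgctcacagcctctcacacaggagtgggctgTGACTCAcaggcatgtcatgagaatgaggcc
S100A16: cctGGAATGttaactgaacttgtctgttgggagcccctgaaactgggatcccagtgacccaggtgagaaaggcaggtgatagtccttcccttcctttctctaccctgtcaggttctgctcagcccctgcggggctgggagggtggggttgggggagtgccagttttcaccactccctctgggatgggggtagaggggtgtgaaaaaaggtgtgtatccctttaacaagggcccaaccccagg
These sequences come from RefSeq start windows, in which 9 of the 10 members had 13 windows.

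The motifs were searched on both strands in the 250 bases before each start. The GAS element TTCNNNGAA and the interferon-stimulated response element, known from interferon-responsive genes, were found in 0 of the 13 windows, against 6.57% and 3.02% of all 35116 windows. The cyclic AMP element TGACGTCA (1.65% of all windows) and the SOX motif ACAAAG (13.7%) were also found in 0. AP-1, TGANTCA, was found in 1 member window and in 6.57% of all windows, TEAD, CATTCC, in 1 and in 11.9%, and the M-box TCATGTG in 1 and in 2.52%. The E-box CANNTG, with which the M-box match overlaps, was found in 9 of the 13 and in 61.8% of all windows. A match describes letters only, and an absence describes only these windows.

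S100A2 and S100A16 had the next largest ratios. S100A2, an epithelial member found largely in the nucleus that binds p53, was at 223 CPM (220.0 to 226) in untreated and 908.5 CPM (902 to 915) in surviving cells, a ratio of 4.07 (4.01 to 4.14). S100A16, a widely expressed member, was at 328 and 996 CPM, a ratio of 3.04 (3.00 to 3.08). Both genes lie on the minus strand of chromosome 1, S100A2 at chr1:153561108-153567890 and S100A16 at chr1:153606886-153613145.

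The abundant members differed less in ratio and more in UMIs. S100A6, or calcyclin, which binds the ubiquitin ligase partner CACYBP, was at 7465 CPM (7447 to 7483) in parental cells, the 8th most abundant gene. In persister cells it was at 17099 CPM (17070 to 17128), the 2nd most abundant, a ratio of 2.29. S100A11, a partner of annexin A1, was at 1569 CPM among parental cells against 3951 CPM among persister cells, a ratio of 2.52. S100A13, which takes part in the release of FGF1 and interleukin 1 alpha, was at 768 and 1664 CPM, a ratio of 2.17. S100A10, which forms a tetramer with annexin A2 at the membrane, was at 1986 and 2580 CPM, a ratio of 1.30 and short of the 2-fold line.

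S100B, S100A1 and S100A4 also stayed short of the 2-fold line. S100B was at 47.5 CPM (46.1 to 48.9) in untreated and 63.2 CPM (61.5 to 65.0) in surviving cells, a ratio of 1.33 whose direction was not kept in the cells with most cell cycle UMIs, described below. S100A1, best known from heart muscle, was at 51.3 and 83.0 CPM, a ratio of 1.62. S100A4, which binds non-muscle myosin and is tied to metastasis, was the only member with a lower level in persister cells, 684.5 CPM in parental and 564 CPM in persister, or 1.21-fold lower (1.20 to 1.23).

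The sequenced transcript ends do not separate every overlap of genes. S100A1 overlaps S100A13 on opposite strands, and no source used here says whether counting used strand, so their reads may not be told apart. S100A4 overlaps S100A3 on the same strand, and both values are uncertain to that extent. The antisense genes over S100A6 and S100A11 were below 0.1 CPM in both libraries.

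**Figure D1:**
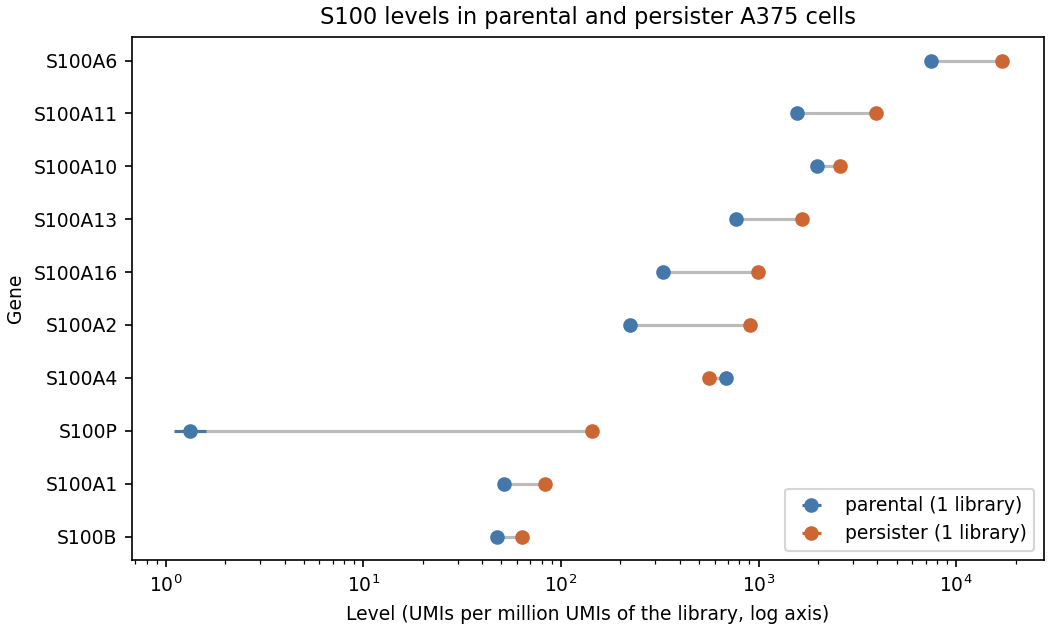
Level of each S100 gene in parental and persister A375 cells, in CPM on a log axis, 1 library per group, with bars for the 95% Poisson counting interval. S100P goes from 1.33 to 143.4 CPM, S100A6 from 7465 to 17099 CPM, and S100A4 is the 1 gene of the 10 plotted whose persister point lies to the left.

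The family outside these members was mostly low. Of 11 other S100 symbols, 1 was measured: S100A3 was at 46.4 CPM in untreated and 17.2 CPM in surviving cells, 2.70-fold lower (2.54 to 2.87), opposite in direction to most members. S100A5 was at 4.53 and 2.43 CPM. S100A8 and S100A12, both myeloid calgranulins, together with S100A7A and S100A7L2, had 0 UMIs in both libraries. That allows at most 0.0340 CPM in untreated and 0.0377 CPM in surviving cells. The other 5, which include the calgranulin S100A9 with 1 parental and 9 persister UMIs, were below 1 CPM.

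The chromosome 1 members lie among genes that were mostly below 5 CPM. From S100A10 to S100A1 (chr1:151982915-153632039) the annotation holds 71 genes, 54 of them outside the family, and 4 of those 54 were measured. The first 3 described here were higher in persister cells. The late cornified envelope gene LCE1E had 1 UMI among parental cells (0.0113 CPM) but 90.0 CPM among persister cells, 7928-fold with counting error from 1422 to 313167. SPRR2D, a small proline-rich envelope protein gene, was at 5.11 and 474 CPM. PRR9 was at 0 and 7.17 CPM. FLG, which encodes filaggrin, was lower, at 27.5 and 0.893 CPM. The S100 genes and their measured neighbours therefore held both directions within this region. S100A3, at a log2 fold of -1.38, was lower beside S100A6 and S100A2, which were higher. S100A4, at -0.28, was short of the 2-fold line and overlaps S100A3, so the 2 values may not be separate.

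**Figure D2:**
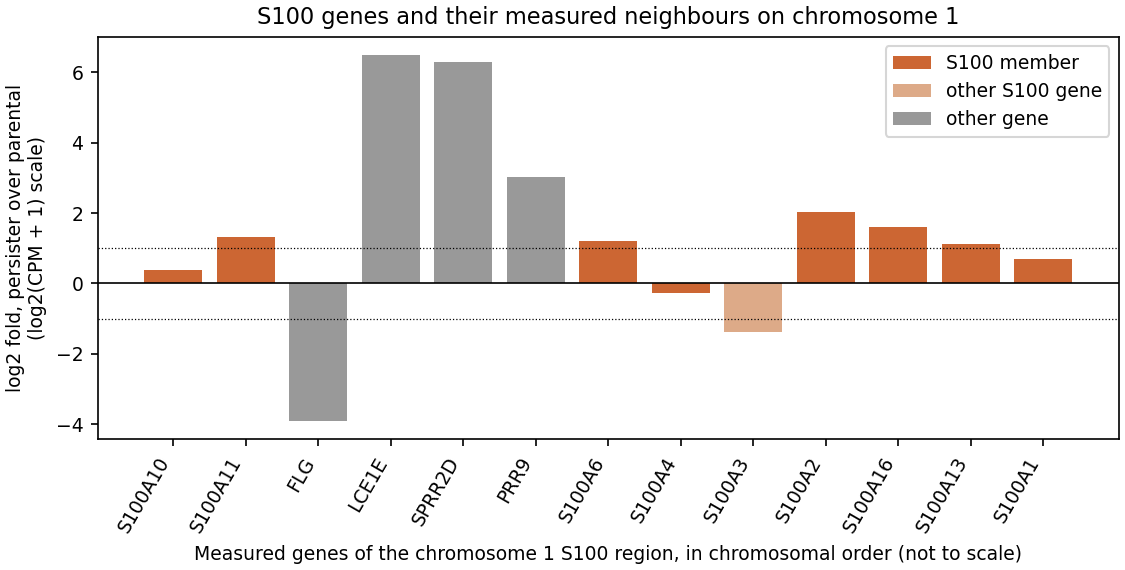
Difference between persister and parental cells on the log2(CPM + 1) scale for each measured gene of the chromosome 1 region, in chromosomal order and not to scale, with S100 genes coloured apart from their neighbours. LCE1E and SPRR2D stand at 6.49 and 6.28, FLG at -3.91, and the S100 genes between -1.38 and 2.02.

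At equal depth the differences were seen in how many cells held each transcript. S100P was found in 0.638% of parental cells (95% Clopper-Pearson interval 0.485 to 0.824) and in 39.6% of persister cells (38.4 to 40.9). Without thinning the shares were 1.06% and 54.9%. The T cell barcodes, at a median of 3568 UMIs and with melanoma markers at 988 CPM, had an S100P UMI in 13.6%, below the 54.9% of persister cells. S100A2 was found in 57.2% of parental and 77.9% of persister cells, and S100A16 in 74.6% and 97.1%. The unthinned shares were 68.5% and 87.2% for S100A2 and 82.5% and 96.4% for S100A16, against 30.2% and 42.6% of T cell barcodes.

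S100B and S100A1 were found in a minority of cells in both libraries. S100B was found in 17.9% of parental and 24.5% of persister cells, or 25.6% and 38.4% without thinning, against 4.32% of T cell barcodes. S100A1 was found in 16.9% and 23.4%, or 23.6% and 34.3% without thinning, against 8.64%. S100A4 was found in 83.3% of parental and 73.8% of persister cells, or 87.9% and 84.9% without thinning, and was found in 67.9% of T cell barcodes. S100A6 was found in every thinned cell of both libraries. T cell RNA at the marker ratio given above would supply between 0.0391% and 0.168% of the members' persister levels, the highest for S100A4. That estimate rests on the same markers that sorted the barcodes.

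For the abundant members the whole distribution over cells lay higher in the persister library. The median thinned cell held 35 S100A6 UMIs in parental and 85 in persister. For S100A11 the medians were 7 and 19, for S100A13 3 and 8, for S100A16 1 and 4, and for S100A10 9 and 13. S100A6 was above the parental 95th percentile in 77.4% of persister cells and S100A11 in 75.5%, against 43.8% for S100A13 and 27.7% for S100A2. For S100A4 the share was 4.88%. The sum of the 10 members had a median of 62 UMIs in parental and 140 in persister cells, and 80.8% of persister cells were above the parental 95th percentile of that sum. Of parental cells, 0.407% reached the persister median.

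**Figure D3:**
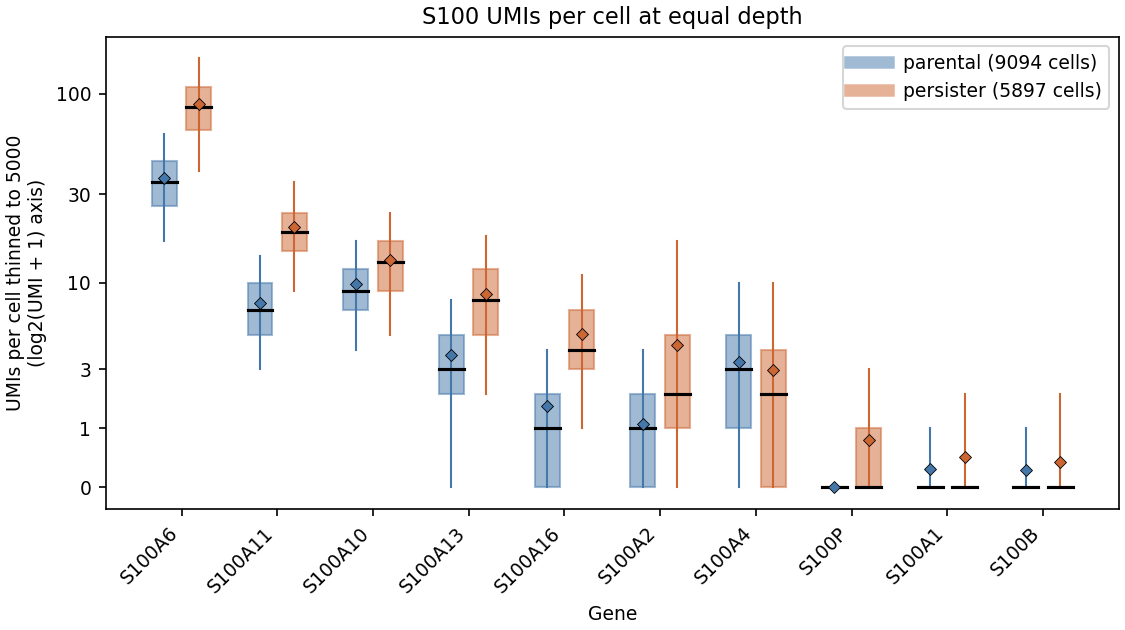
UMIs of each S100 gene per cell thinned to 5000 UMIs, on a log2(UMI + 1) axis, for 9094 parental and 5897 persister cells. Diamonds mark the mean, black bars the median, boxes the span between the quartiles, and lines the 5th to the 95th percentile of cells. The persister medians of S100A6 (85 against 35) and S100A11 (19 against 7) lie above the parental 95th percentile, while those of S100A4 overlap.

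Members differed in how evenly persister cells shared them. S100A2 had a Fano factor (variance over mean of thinned UMIs) of 10.9, above that of all 60 genes of like mean, whose median was 1.28. The 10% of cells with most S100A2 held 47.7% of its UMIs, and the highest cell held 76 against a median of 2. In parental cells, at a mean of 1.10 UMIs against 4.32 in persister cells, the S100A2 Fano factor was 1.88. The median of 280 parental genes of like mean was 1.05. S100P had a Fano factor of 2.20 against a median of 1.07 for 403 genes of like mean, and its top 10% of cells held 50.6% of its UMIs. S100A4 had 4.84 against 1.20 and S100A1 2.68 against 1.05. Of these, S100A1 had the largest share of UMIs in the top 10% of cells, 69.1%, and 72.0% in parental cells. It also had the lowest mean, 0.435 UMIs against 0.751 for S100P and 2.98 for S100A4. Such shares were not set beside genes of like mean.

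The median correlation between members over cells was higher in the persister library. Over 45 pairs, Pearson r of log2(UMI + 1) ranged from -0.06 to 0.34 with a median of 0.09 in parental cells, and from -0.15 to 0.51 with a median of 0.15 in persister cells. S100A6 with S100A10 and S100A6 with S100A11 both had r = 0.51 over 5897 persister cells, and S100A6 with S100A13 had 0.45. S100A1 and S100A13, which overlap, had 0.36. S100B with S100A2 had the lowest r, -0.15. These are descriptions within 1 library, whose cells share their depth after thinning, and those of the sparse members S100P and S100B are weak. Thinning did not equalise the members' own counts. The mean thinned cell held 36.6 S100A6 UMIs in parental and 88.8 in persister, and 7.72 and 20.1 for S100A11. For S100A4 the means were 3.34 and 2.98. The part of these counts in the higher correlations was not tested.

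The genes of highest r with S100A6, S100A4, S100B and S100P were sought among 9742 genes over the same 5897 cells, as a description. For S100A6 they were S100A10, S100A11, the lectin gene LGALS1 (0.50), the actin-binding gene TMSB10 (0.50) and S100A13. For S100A4 they were the copper chaperone gene ATOX1 (0.31), S100A13 (0.27), S100A6 (0.26), LGALS1 (0.25) and S100A10 (0.23). For S100B they were ATOX1 (0.25), CD74 (0.24), S100A13 (0.23), HLA-B (0.21) and TIMP1 (0.20). S100P, whose values like those of S100B are too weak to read as a finding, had TIMP1 (0.25), FERMT1 (0.23), the nuclear RNA NEAT1 (0.23), TMSB10 (0.20) and S100A11 (0.20).

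Persister cells were clustered without the S100 genes, and the clusters are named by number and first leading gene. S100P was highest in cluster 1, led by LCE1E (463 cells), at 350 CPM (326 to 374.8), and lowest in cluster 3, led by ESM1 (380 cells), at 61.6 CPM (50.9 to 73.8). It was at 181 CPM in cluster 0, led by TNFRSF19, and at 80.0 CPM in cluster 5, led by the mitotic gene KIF20A. Cluster 1 also had the highest S100A6, 26566 CPM against 11116 CPM in cluster 3, and the highest S100A11, 6028 CPM against 3177 CPM. Keratinocyte markers summed to 729 CPM in cluster 1 and to between 834 and 966 CPM in the other clusters.

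S100B and S100A1 differed most between clusters. S100B was at 138 CPM (130.4 to 145.3) in cluster 0 and at 8.42 CPM (4.81 to 13.7) in cluster 3, 16.4-fold apart. S100A1 was at 159 CPM in cluster 1, 149 CPM in cluster 0 and 8.42 CPM in cluster 3, 18.8-fold from highest to lowest. S100A4 was at 888 CPM in cluster 0 and 209 CPM in cluster 3. S100A2 had another order, with 1414 CPM (1386 to 1442) in cluster 4, led by the DNA synthesis gene RRM2, 1178 CPM in cluster 5, 558 CPM in cluster 0 and 502 CPM in cluster 3. Cluster 3 was the lowest for every member. Its cells also had the greatest median depth before thinning, 16884 UMIs against 9923 to 16015 UMIs in the others, and the part of depth in this was not tested.

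Parental cells already differed in S100B. Among the 5 parental clusters of at least 50 cells, S100B ran from 14.4 CPM in the one led by SPANXB1 to 130 CPM in the one led by LOXL4, 9.0-fold apart. S100A1 ran from 17.5 to 105 CPM between the same clusters, and S100A4 from 487 to 1023 CPM. S100A2, from 194 to 264 CPM, and S100A11, from 1492 to 1748 CPM, differed less.

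**Figure D4:**
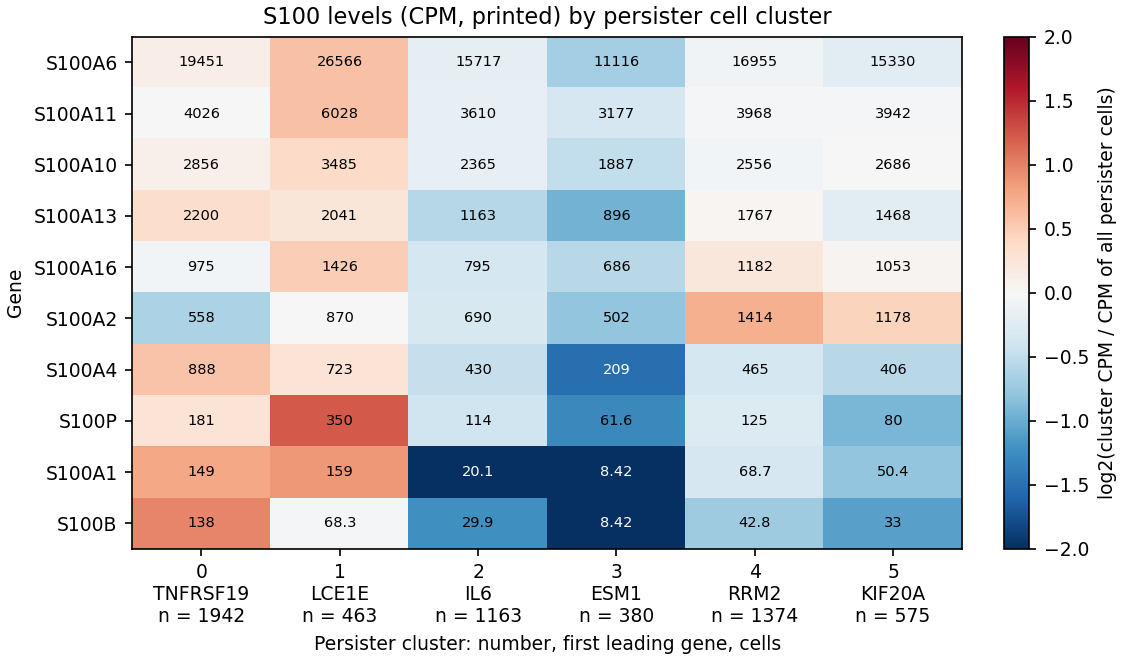
Level of each S100 gene in the 6 persister clusters, printed in CPM, with colour for log2 of the cluster level over the level in all persister cells, running from -2 to 2 and saturated beyond. S100P and S100A1 are highest in cluster 1, S100B and S100A4 in cluster 0 and S100A2 in cluster 4, and cluster 3 is lowest in each row.

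Proliferation genes split the members in opposite directions. Persister cells were ordered by their UMIs of 30 S phase and G2/M genes and cut into tertiles of 2358, 1603 and 1936 cells. S100P was at 207 CPM in the low, 140 CPM in the middle and 89.6 CPM in the high tertile. S100B was at 109, 57.8 and 33.5 CPM, S100A1 at 129, 69.1 and 50.7 CPM, and S100A4 at 801, 523 and 405 CPM. S100A2 ran the other way, at 574, 1022 and 1088 CPM. S100A16, at 1026, 992 and 1012 CPM, hardly differed. Depth before thinning moved with these: S100P was at 174 CPM in the shallowest and 121 CPM in the deepest tertile, S100B at 89.0 and 47.2 CPM, and S100A2 at 750 and 1031 CPM. The part of depth in the tertile differences was not tested.

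Of those 30 cell cycle genes, 22 were at least 2-fold lower in persister cells. The libraries were therefore also compared on each side of 1 edge of their UMIs, a comparison added after seeing the data. The edge, 21 UMIs, was the lower tertile edge of parental cells, while the persister tertile edges were 3 and 12 UMIs. Cell cycle UMIs were thus not matched between the libraries inside either range. Below 21 cell cycle UMIs per thinned cell, with the edge included (3064 parental and 4975 persister cells), the log2 fold was 6.12 for S100P and 1.75 for S100A2. Above it (6030 and 922 cells) the values were 5.15 and 2.36. S100B and S100A1 depended on this choice. S100B was 0.40 in all cells and -0.19 above the edge, S100A1 was 0.69 and 0.02, and S100A4 was -0.28 and -0.70.

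Interferon-gamma is a cytokine that activated CTLs release. By the UMIs of its response genes, the low and high tertiles differed most for S100B, 41.9 and 102 CPM, and S100A1, 53.4 and 122 CPM. S100A4 was at 463 and 711 CPM, and S100P at 129 and 179 CPM. S100A2 was at 877 and 814 CPM. The mitochondrial share of UMIs moved with the same genes: S100B was at 39.3 CPM in the low and 97.7 CPM in the high tertile of that share, S100A1 at 56.1 and 114 CPM, and S100A2 at 1008 and 718 CPM. Its part in them was not tested.

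Persister cells with and without S100P were then compared at 5000 UMIs. The split gave 2336 positive cells, 1034 of them with at least 2 S100P UMIs, and 3561 negative cells, among which undetected S100P cannot be told from absent S100P. None of the 9 other members was 2-fold apart. Of 5383 genes measured at 20 CPM or more, 0.0557% passed 2-fold upward and 0.0186% downward in positive cells, and the log2 folds lay between -0.34 and 0.21 from the 5th to the 95th percentile. S100A1 was at 104 CPM in positive and 76.0 CPM in negative cells, a ratio of 1.36 (1.26 to 1.47). S100A2 was at 999 and 777 CPM, a ratio of 1.29 (1.25 to 1.32), and S100A16 at 1124 and 938 CPM, a ratio of 1.20. S100A4, S100A6, S100A10, S100A11 and S100A13 had ratios between 1.09 and 1.14. S100B, at 73.4 and 68.4 CPM, had a ratio of 1.07 (0.982 to 1.17), whose counting interval includes no difference. These intervals do not cover the random thinning. Another thinning seed gave a log2 fold of 0.65 in place of 0.44 for S100A1 and 0.25 in place of 0.36 for S100A2. In cells at or below the median of cell cycle UMIs, added after seeing the data, S100A4 was at 0.03 in place of 0.18. S100B was there at -0.19 in place of 0.10.

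The genes past 2-fold in this split were 4. LCE1E was at 151 CPM in positive and 49.5 CPM in negative cells, GAST, the gastrin gene, at 32.5 and 13.3 CPM, and SERPINB2, the inhibitor of plasminogen activators, at 29.3 and 13.5 CPM. ESM1, an endothelial proteoglycan gene, was lower in positive cells, 16.8 against 36.5 CPM. Without the LCE1E-led cluster none of these 4 stayed past 2-fold, while 2 other genes, not named here, passed it upward. The log2 fold of LCE1E was then 0.52 in place of 1.59 and that of GAST 0.93 in place of 1.23. That of SERPINB2 was 0.91 in place of 1.06 and that of ESM1 -0.93 in place of -1.07. The 27 measured cell cycle genes had a median log2 fold of -0.52 in positive cells with a range from -0.92 to -0.16, and the 22 interferon-gamma genes a median of -0.02, against -0.05 over all genes measured in the split. Median depth before thinning was 11466 UMIs in positive and 12261 UMIs in negative cells, mitochondrial share 7.90% and 7.62%, and T cell markers 6.42 and 6.07 CPM, and the part of these in the split was not tested.

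Most of the other members stood higher in cells with more S100P. Relative to the 3561 cells with 0 S100P UMIs, S100A1 was at 1.12 in 1302 cells with 1 UMI, 1.60 in 521 cells with 2 and 1.73 in 513 cells with 3 or more. S100A11 was at 1.07, 1.16 and 1.29, S100A6 at 1.08, 1.14 and 1.23, and S100A16 at 1.13, 1.23 and 1.34. S100A2 was at 1.21, 1.48 and 1.28, so its highest value was in the class with 2 UMIs.

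**Figure D5:**
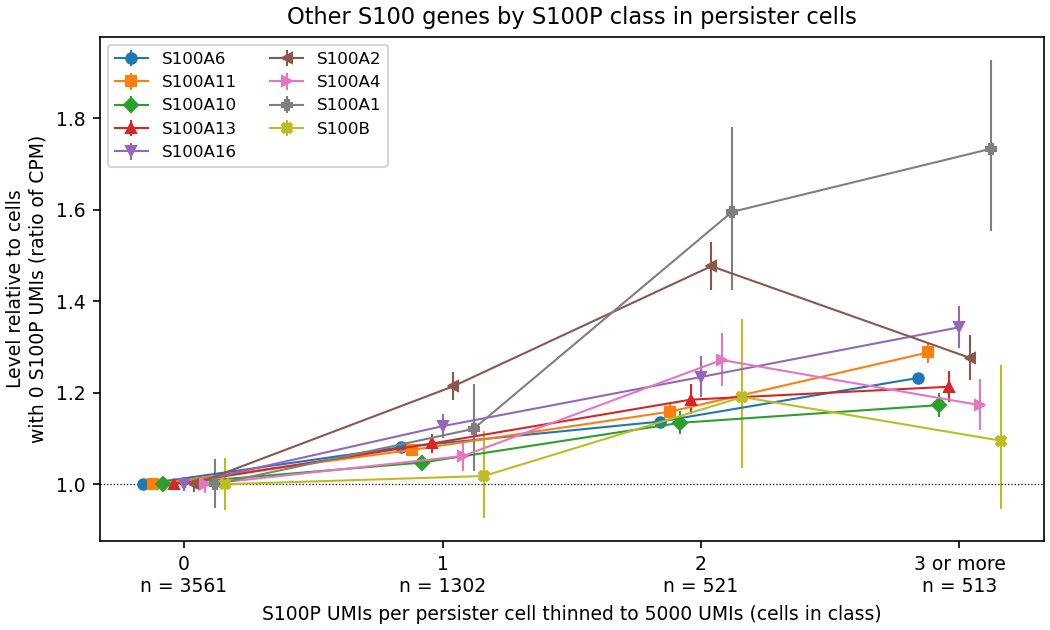
Level of the other S100 genes in persister cells grouped by S100P UMIs per thinned cell, as the ratio of CPM to that in cells with 0 S100P UMIs (dotted line at 1). S100A1 reaches 1.73 and S100A16 1.34 at 3 or more UMIs, while S100B stays between 1.02 and 1.19.

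S100P detection was crossed with 4 other genes. Of 563 persister cells with LCE1E, 53.8% (49.6 to 58.0) had S100P, against 38.1% of 5334 without. Of 1832 cells with the proliferation gene MKI67, 30.9% had S100P, against 43.5% of 4065 without. The shares were 34.5% of 860 cells with the chemokine gene CXCL10 against 40.5% without, and 33.5% (27.1 to 40.3) of 209 cells with NGFR, the nerve growth factor receptor, against 39.8% (38.6 to 41.1) without. The last pair of intervals overlaps.

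Partners of the S100 proteins held both directions. Of 28 measured partners and receptors, 6 passed 2-fold upward and 3 downward, against 9.33% upward and 8.93% downward over all measured genes, and the median log2 fold was -0.11. The scaffold gene AHNAK2 was at 2.70 CPM in untreated and 31.0 CPM in surviving cells, and SYT1, the vesicle calcium sensor, at 6.34 and 50.2 CPM. TPM1, a tropomyosin gene, was lower, at 757 and 127 CPM. The partners named above were looked up after the values were seen: ANXA2, the partner of S100A10, was at 491 and 663 CPM, ANXA1 at 927 and 840 CPM, EZR at 119.7 and 132 CPM, MYH9 at 58.2 and 62.6 CPM, and CACYBP at 547 and 303 CPM. IL1A, whose product S100A13 helps export, was at 0.284 and 5.63 CPM.

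EF-hand genes outside the family also held both directions. Of 31 measured EF-hand genes outside it, 2 passed 2-fold upward and 4 downward, beside the same 9.33% and 8.93% of all measured genes, and the median was -0.20. CALR, an endoplasmic reticulum calcium buffer, was at 750 and 295 CPM, RCN2, a buffer of the same compartment, at 112 and 49.6 CPM, and STIM2, the sensor of stored calcium, at 49.4 and 113 CPM. Of 22 measured regulators reported for S100 genes, 6 passed 2-fold upward and 1 downward, again beside 9.33% and 8.93%, among them IRF1 at 17.0 and 947 CPM and ATF3 at 3.52 and 81.6 CPM. All 25 measured interferon-gamma genes passed 2-fold upward, with a median of 3.49. Of the 8 measured genes listed for the epidermal differentiation complex and its flank, 2 passed 2-fold upward and 1 downward, and the median was -0.32. LCE1E and SPRR2D passed it upward and FLG downward. The other 5 lie outside the region from S100A10 to S100A1 described above. PRR9, described with that region, was not on this list.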

How the data were processed

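Deposited UMI counts per gene and barcode were used, with no normalisation by the authors in the values. Per the submitters' processing notes they were made with Cell Ranger 3.1.0 on GRCh38; the annotation release, strand use and cell calling are not stated there. Per the labels' protocols, trypsinised cells went into the 3' v3 chemistry of 10x Chromium. No column was left unmapped.

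Barcodes were kept from 500 genes and 1000 UMIs upward where mitochondrial UMIs did not exceed 20%, and those with 3 or more of CD2, CD3D, CD3E, CD52, PTPRC and TRAC were set aside (0 parental, 162 persister). This left 10630 of 10751 parental and 6605 of 7144 persister barcodes. No barcode was removed as a doublet and no caller was run; an alternative left out the 5% of cells with most UMIs. Counts were summed per library and scaled to CPM, and log2 folds used a pseudocount of 1 CPM. Cells are not replicates, so no p-value was computed. Intervals are 95% exact (Poisson for levels, conditional binomial for ratios, Clopper-Pearson for shares) and cover counting error only. A count of 0 was given an upper limit of 3 UMIs per library. UMIs come from transcript ends and were not divided by gene length.

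For shares, spread, tertiles, clusters and the S100P split, cells of at least 5000 UMIs were thinned to 5000, which left out 1536 parental and 708 persister cells. Clusters were made per library with scanpy 1.11.5 without S100 genes (2000 variable genes, 30 components, 15 neighbours, Leiden resolution 0.5), and TMM scaling used edgeR 4.0.16. Genes of like mean lay within 20% of a member's mean. Likeness used genes with a UMI in at least 2% of cells. Gene positions are from GENCODE 29 (33456 of 33538 identifiers matched), and start windows from the RefSeq table on GRCh38.p14. Scripts were tested on simulated data.

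The members and gene lists were chosen with earlier results of these data known. Genes were named by rule: all members, other S100 symbols at 1 CPM or more, up to 3 genes per list with the largest absolute log2 fold, up to 10 genes per direction past 2-fold in the S100P split, and the 5 genes of highest correlation for S100P, S100B, S100A4 and S100A6. Other named genes were chosen after their values were seen. A gene that the rule would name is not reported here.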

Additional observations from a re-analysis of the deposited data

How the results depend on the processing

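No paired analysis was possible because each group has 1 library. The count of members at least 2-fold higher, 6, and lower, 0, was the same under all 17 alternatives run for it. Those that changed only the measurement floor (1 CPM, 20 CPM or no minimum) could not alter it or any member's fold. Every member had 63.2 CPM or more in persister cells. The log2 fold of S100P ran from 4.55 with a pseudocount of 5 CPM to 6.65 with 0.1 CPM. S100B was above 0 under 16 of 17, the exception being the added comparison of cells above the cell cycle edge, -0.19. TMM scaling moved the median of all measured genes up by 0.12 and gave 1064 genes higher and 674 lower, against 927 and 887. A pseudocount of 5 CPM gave 501 lower, and measuring at 20 CPM gave 565 higher and 559 lower. In the S100P split, requiring 2 S100P UMIs gave 6 genes higher and 15 lower, and measuring at 50 CPM gave 1 and 0. No gene was 2-fold lower, in place of 1, with unthinned counts, and in 2 alternatives added after seeing the data, in cells at or below the median of cell cycle UMIs and without the LCE1E-led cluster. ESM1 then had a log2 fold of -0.77, -0.91 and -0.93 in place of -1.07. The cause of these moves was not tested. Depth limits S100P, S100B and S100A1 most, where 1 UMI decides whether a cell counts, and 1 library per group leaves the spread between cultures unknown.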

Other observations

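In persister cells the genes closest to S100A2, a member added to the likeness search after its spread over cells was seen, were PPP1R14B and FERMT1, each at r = 0.30 over 5897 cells. FERMT1, which encodes an integrin-binding protein, was also among the 5 closest to S100P, at a weaker 0.23. These are descriptions within 1 library.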
